A study of Mus musculus with 2 samples.

Results

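The genes described here are 46 regulators of programmed cell death: the Bcl2 family, caspases, inhibitors of apoptosis (IAPs), death receptor adaptors, death-associated kinases and DNA fragmentation factors. They were chosen by name, and each was read from the probe set that names it alone and is brightest on average. Of the 46 genes, 43 had such a probe set in the platform annotation used here. Bax, Ripk1 and Bnip3l were not analysed here. The annotation used names no probe set for Bax or Ripk1, and no probe set shared between genes was taken. The 3 probe sets that name Bnip3l also name its pseudogene. The array names 18193 genes singly in all.

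The tissue was the interdigit of the hind limb, dissected from mouse embryos of natural matings at stage E13.5. One array held RNA of wild-type embryos labelled B6, and the other held RNA of embryos homozygous for Hammer toe, a mouse mutant with webbed digits, whose strain the labels do not give. Strain and genotype therefore cannot be told apart. Per the design text, 15 embryos of each genotype were used, as 3 groups of 5 littermates, but there was 1 array per genotype, and the relation of the groups to it is not stated. No replicate check, error between samples or p-value is possible, and the number of arrays limits the precision. Differences are given by size, as log2 ratios of Hammer toe over wild type. The tissue is a mixture of cells, so fewer cells of a type and less RNA per cell cannot be told apart.

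Tissue between the digits is cleared largely by apoptosis, and failure of that process leaves webbed digits. In the mitochondrial route, BH3-only proteins engage survival proteins such as Bcl2 and Mcl1, which frees the effectors Bax and Bak1 to permeabilise the outer mitochondrial membrane. Bok is a related effector that can act largely apart from these controls. Released cytochrome c assembles with Apaf1 and Casp9 into the apoptosome, which activates executioner caspases, while IAPs restrain them. In the death receptor route, Fas and related receptors recruit Fadd and Casp8, and Cflar competes with Casp8. Mouse genetics has tied Bak1, Bok, Bax, Bcl2l11, Bmf and Apaf1 to interdigital cell death.

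The cell death genes had nearly the same signal on both arrays. The values are MAS5 intensities, the summary Affymetrix software makes from the probes of a probe set. Values under 78.1, the median of all values, were raised to this floor, and genes above it on at least 1 array are called measured. By this rule 39 of the 46 genes were measured, and Casp1, Casp12, Fas and Dapk2 lay under the floor on both arrays. None of the 39 differed by 1.5-fold or more in either direction. Of all 11621 measured genes, 2.17% reached 1.5-fold in the higher direction and 1.39% in the lower one. Beside shares this small, 0 of 39 is near the background and is not a result about these genes. At 2-fold the members again counted 0, and the shares of all genes were 0.258% higher and 0.112% lower. Among the members, 18 were higher and 21 lower, 46.2% higher against 51.7% of all measured genes. Their median log2 ratio was -0.01, against 0.01 over all measured genes, and the interquartile range of the members ran from -0.11 to 0.08, against -0.11 to 0.13.

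At a smaller size, a log2 ratio of at least 0.32 either way, Birc3 and Hrk were higher and Pmaip1 was lower, 5.13% and 2.56% of the members. The same size was reached by 8.47% of all measured genes in the higher and 6.33% in the lower direction. Closer to 0 than this lay 36 of 39 members (92.3%) and 85.2% of all measured genes. Spread depends on brightness, so each member was also set against genes of like brightness. Brightness was taken from the brighter array. Up to 200, the range that held 95% of genes was 1.60-fold; from 200 to 1000 it was 1.45-fold, and over 1000 it was 1.24-fold. The members in these 3 ranges numbered 4, 19 and 16, and none lay outside the range of its own group, with values raised to the floor. The largest member ratios there were 1.28-fold, 1.40-fold and 1.20-fold. Bik, Hrk and Tnfrsf10b, in the dimmest range, had 1 array under the floor, so their ratios without it may be larger. The 1.28-fold is that of Hrk.

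**Figure D1:**
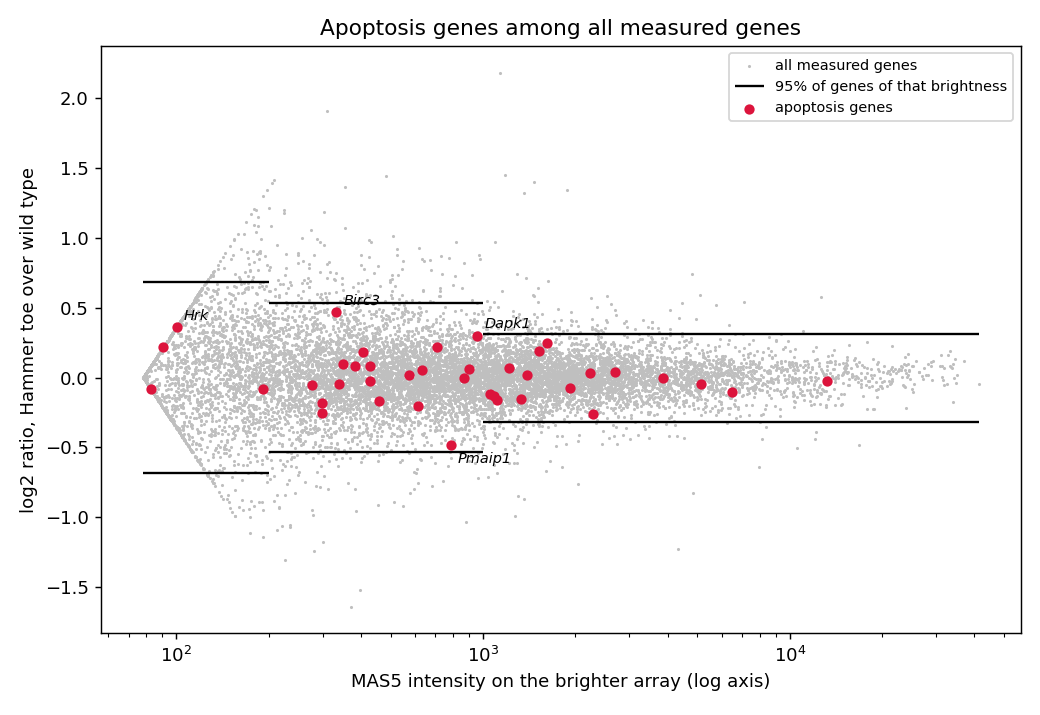
Log2 ratio of Hammer toe over wild type against the MAS5 intensity on the brighter array (log axis) for all 11621 measured genes (grey) and the 39 measured apoptosis genes (red), 1 array per genotype. Horizontal black lines enclose 95% of genes in each of 3 brightness ranges; all 39 apoptosis genes lie between the lines, with Pmaip1 lowest at -0.48 and Birc3 highest at 0.47.

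Promoter sequences are shown for 2 members: Bcl2l11, the BH3-only gene of interdigital death whose probe sets were mostly higher in Hammer toe, and Bcl2, which is known as a target of Gli factors, the transcription factors of hedgehog signalling. Each run holds the 250 bases before a RefSeq start in GRCm38.p6, on the gene's own strand and 5′ to 3′, with a motif match in capitals. Bcl2l11 has 2 such windows, and the one printed was picked because it holds a match, which the other lacks. Bcl2l11 lies at chr2:128125788-128126037 (plus strand) and Bcl2 at chr1:106714291-106714540 (minus strand).
Bcl2l11: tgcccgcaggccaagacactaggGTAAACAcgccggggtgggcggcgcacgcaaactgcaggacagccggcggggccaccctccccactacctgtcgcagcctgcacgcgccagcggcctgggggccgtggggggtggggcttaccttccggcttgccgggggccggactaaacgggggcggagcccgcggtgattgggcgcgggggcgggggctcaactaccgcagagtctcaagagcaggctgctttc
Bcl2: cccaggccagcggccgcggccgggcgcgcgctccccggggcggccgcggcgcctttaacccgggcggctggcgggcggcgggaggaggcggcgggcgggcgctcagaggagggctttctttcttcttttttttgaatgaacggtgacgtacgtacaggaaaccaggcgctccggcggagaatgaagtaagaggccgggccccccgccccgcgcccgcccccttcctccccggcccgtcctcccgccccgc
Capitals in Bcl2l11 mark a FoxO motif (GTAAACA) on the printed strand, 227 to 221 bases before the start. No capitals stand in Bcl2, since the Gli motif GACCACCCA was not found there. Both strands were searched in the 250-base windows of 41 members, 55 windows in all because some genes have several starts. The Gli motif stood in none of the 55, against 0.225% of all 32851 windows. FoxO matches stood in 2 member windows, those of Bcl2l11 and Bbc3, or 3.64% against 3.17% of all windows. Overlap with other motifs was not examined, and a match describes letters only.

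The pore-forming effectors were close to wild type. Bak1, which opens the outer mitochondrial membrane, gave 278 for wild type and 267 for Hammer toe, a log2 ratio of -0.05, and its second probe set was at 0.04. Bok, a related effector, read 613 and 534, a ratio of -0.20, on its only probe set. Bok was lower by 1.15-fold, and 35.1% of genes of its brightness lay at least as far from 0. On the probe sets used, both measured effectors were nominally lower, with a median of -0.13, but the 2 probe sets of Bak1 lay on opposite sides of 0.

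The 8 BH3-only genes, which encode the sensors that start the mitochondrial route, were all measured, 4 higher and 4 lower, with a median log2 ratio of -0.01. Pmaip1 (Noxa, a p53-induced BH3-only gene) stood furthest from 0 of the members on the probe sets used: it gave 786 for wild type and 562 for Hammer toe, 1.40-fold lower, at -0.48. It rested on a single probe set, and 6.28% of genes of its brightness lay at least as far from 0. Hrk, a BH3-only gene best known from neurons, gave 74.3 for wild type, under the floor, and 100.3 for Hammer toe. That makes the ratio a bound of at least 0.36, and its second probe set, also under the floor in wild type, gave at least 0.21.

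Bcl2l11 (Bim) and Bmf act together in interdigital death. Bcl2l11 gave 1360 for wild type and 1612 for Hammer toe, 1.19-fold higher, and 9.22% of genes of its brightness lay at least as far from 0. Of its 5 probe sets, 4 were higher and 1 lower, from -0.03 to 0.30. Bmf read 1334 and 1199, a log2 ratio of -0.15, while its second probe set went from 185 to 221, a ratio of 0.25. The direction of Bmf thus depended on the probe set, and neither value stood outside the spread of genes of like brightness.

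Other BH3-only genes differed little. Bad, a sensor linked to growth factor signalling, gave 866 for wild type and 903 for Hammer toe, with log2 ratios of 0.06 and 0.16 on its 2 probe sets. Bid, which joins the death receptor route to mitochondria, read 328 and 350, a ratio of 0.10, and the bound of its second probe set was at least 0.24. Bbc3 (Puma, also p53-induced) read 191 and 181, a ratio of -0.08. The direction of Bbc3 was that of Pmaip1, at a much smaller size, and 79.0% of genes of its brightness had a ratio at least as large either way. Perp, a p53 target outside the member list, went the other way, at 0.49. Bik gave 82.6 for wild type and 77.9 for Hammer toe, just under the floor, a bound of -0.08.

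Of the 4 survival genes, 3 were slightly higher in Hammer toe on the probe set used, and the class median was 0.19. With the probe sets of each gene averaged, that median was 0.05. Bcl2 gave 1328 for wild type and 1518 for Hammer toe, a ratio of 0.19. Its other 4 probe sets spanned -0.24 to 0.13, so that 4 of 5 were higher. Bcl2l1 (Bcl-x) read 611 and 709, a ratio of 0.22, but 2 dimmer probe sets went the other way, from 189 to 137 and from 142 to 112, ratios of -0.46 and -0.34. Averaged over its probe sets, Bcl2l1 stood at -0.20. Bcl2l2 (Bcl-w) read 359 and 407, a ratio of 0.18 on its only measured probe set. Mcl1, a short-lived survival protein, read 6472 and 6017, a ratio of -0.11, and its 6 probe sets ran from -0.11 to 0.20 with 4 higher. No survival gene had a ratio that held one direction over several measured probe sets.

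The Bnip3 group, mitochondrial proteins that also act in mitophagy, was represented by 2 measured genes. Bnip3, induced by low oxygen, gave 2290.5 for wild type and 1911 for Hammer toe, 1.20-fold lower at -0.26. It rested on a single probe set, and 7.73% of genes of its brightness lay at least as far from 0. Of 7 measured hypoxia-linked genes listed by name, 5 were lower and 2 higher, with a median of -0.08. The lower 5 reached -0.12 and Egln3 was the 1 gene past 1.5-fold, higher at 0.72; their part in the Bnip3 value was not tested. Bcl2l13 read 870.5 and 869.7, a ratio of 0.00, and its second probe set was at 0.06.

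**Figure D2:**
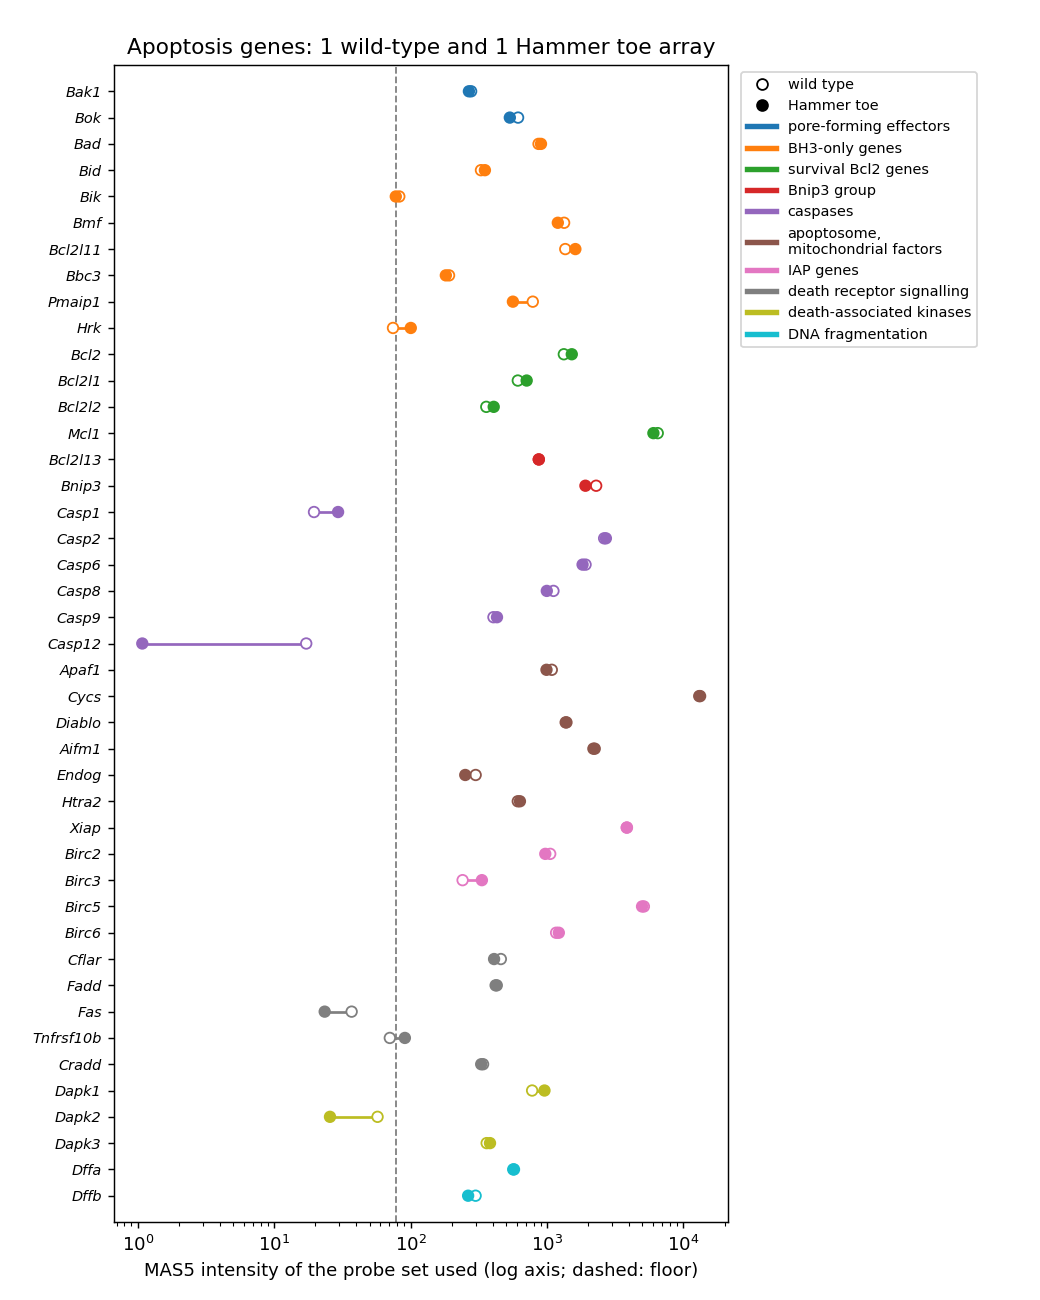
MAS5 intensity (log axis) of the probe set used for each of the 43 apoptosis genes that had one, on the wild-type array (open) and the Hammer toe array (filled), coloured by class, with 1 array per genotype and no error bars; the dashed line is the floor of 78.1. The open and filled circles of nearly every gene to the right of the floor touch or overlap, and the wide gaps belong to Casp1, Casp12, Fas and Dapk2, which lie under it.

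Caspases, the proteases that carry out death, had 4 measured genes with a median log2 ratio of -0.02, 2 higher and 2 lower. Casp8, the initiator of the death receptor route, gave 1114 for wild type and 996 for Hammer toe, a ratio of -0.16. Casp9, the initiator on the apoptosome, read 405 and 430, a ratio of 0.09, and its second probe set went from 114 to 90.3, a ratio of -0.33. Casp2, an initiator linked to DNA damage, read 2621 and 2698, and Casp6, an executioner, 1915 and 1821, ratios of 0.04 and -0.07. The caspases thus lay within 1.12-fold of wild type on the probe sets used. Casp1 and Casp12, inflammatory caspases, read at most 29.4 on either array.

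Apaf1, the scaffold of the apoptosome, gave 1083 for wild type and 991 for Hammer toe, a ratio of -0.13, and its second probe set went from 224 to 173, a ratio of -0.37. It was 1 of 2 members, with Fadd, whose several measured probe sets were all lower. That is 2 of the 22 members with several measured probe sets, against 1189 of 5544 such genes on the array. Cycs (cytochrome c) read 13235 and 13043, and its 3 measured probe sets stayed between -0.02 and 0.05. Diablo and Htra2, which bind and block IAPs once released from mitochondria, had ratios of 0.02 and 0.05. The second probe set of Diablo went the other way, from 88.5 to 57.0, under the floor, a bound of -0.18. That of Htra2 was at 0.13. Aifm1, a mitochondrial flavoprotein that can move to the nucleus, was at 0.03. Endog, a mitochondrial nuclease, read 300 and 252, a ratio of -0.25, and its second probe set went the other way, from 169 to 214, a ratio of 0.34. The 6 genes of this class had a median of 0.00, with 3 higher and 3 lower.

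The IAP genes had a median of -0.01, but held the highest ratio among the probe sets used. Birc3 (cIAP2), a ubiquitin ligase induced by NF-kB, gave 241 for wild type and 333 for Hammer toe, 1.38-fold higher at 0.47. It rested on 1 measured probe set, and 7.06% of genes of its brightness lay at least as far from 0. Birc2 (cIAP1), its paralog, read 1055 and 971, a ratio of -0.12 in the opposite direction. Xiap, which binds caspases directly, read 3850 and 3835, a ratio of -0.01. Its 6 measured probe sets were split 3 and 3, from -0.15 to 0.33. Birc6, a giant IAP, was at 0.07, and all 5 of its measured probe sets were higher, up to 0.48 on a probe set that went from 113 to 158. Birc5 (survivin), expressed in dividing cells, read 5124 and 4969, a ratio of -0.04; the 9 measured cell cycle markers had a median of -0.06.

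Death receptor genes had 4 measured members with a median of -0.04. Fadd, the adaptor of Fas, gave 428 for wild type and 420 for Hammer toe, and Cradd, an adaptor of Casp2, 340 and 329, ratios of -0.03 and -0.05. Tnfrsf10b, the TRAIL receptor, read 70.4, under the floor, and 90.8, a bound of at least 0.22. Cflar, the decoy of Casp8, read 459 and 409, a ratio of -0.16. Its 4 measured probe sets disagreed, 2 lower and 2 higher, and 1 of them gave 73.4 for wild type, under the floor, and 129 for Hammer toe, a bound of at least 0.72. Counted over any measured probe set, Cflar was the only member at 1.5-fold or more, 1 of 39, against 3.69% of genes higher and 2.99% lower by the same rule. Fas read 37.0 and 23.5, under the floor on both arrays.

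Among the death-associated kinases, Dapk1 stood furthest from wild type with its probe sets in one direction. Dapk1, a calmodulin-regulated kinase, gave 777 for wild type and 958 for Hammer toe, 1.23-fold higher at 0.30, and its second probe set went from 220 to 318, at 0.53. Of genes of its brightness, 19.4% lay at least as far from 0. The class median of 0.19 rested on Dapk1 and Dapk3, and was 0.08 without a floor, where Dapk2 entered. Dapk3 read 361 and 382, a ratio of 0.08, and Dapk2 lay under the floor. Of the DNA fragmentation genes, Dffa (the inhibitor ICAD) read 565 and 572 and Dffb (the nuclease CAD) 300 and 264, ratios of 0.02 and -0.18, with Dffb at 0.01 on its second probe set.

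Probe sets of the same gene gave a yardstick for these small ratios. In 22 members with 2 or more measured probe sets, all lay on the same side of 0 in 8 (36.4%), against 42.5% of 5544 such genes on the array. The 6 that were higher throughout were Bad, Bid, Hrk, Htra2, Birc6 and Dapk1. That is 6 of the 22, against 1168 of the 5544 genes, and Bid and Hrk counted there through bounds. In 9 members (40.9%) probe sets lay on opposite sides and more than 0.3 apart, against 33.0% of all such genes; these were Bmf, Bcl2l11, Bcl2, Bcl2l1, Mcl1, Casp9, Endog, Xiap and Cflar. Where both arrays were above the floor, probe sets of a gene had a pooled SD of 0.18 in 19 members and 0.21 in 5134 genes, and 30 of the 39 members (76.9%) had a ratio smaller than the latter, near the 72.2% of all measured genes. This SD covers disagreement between probes and not variation between embryos.

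**Figure D3:**
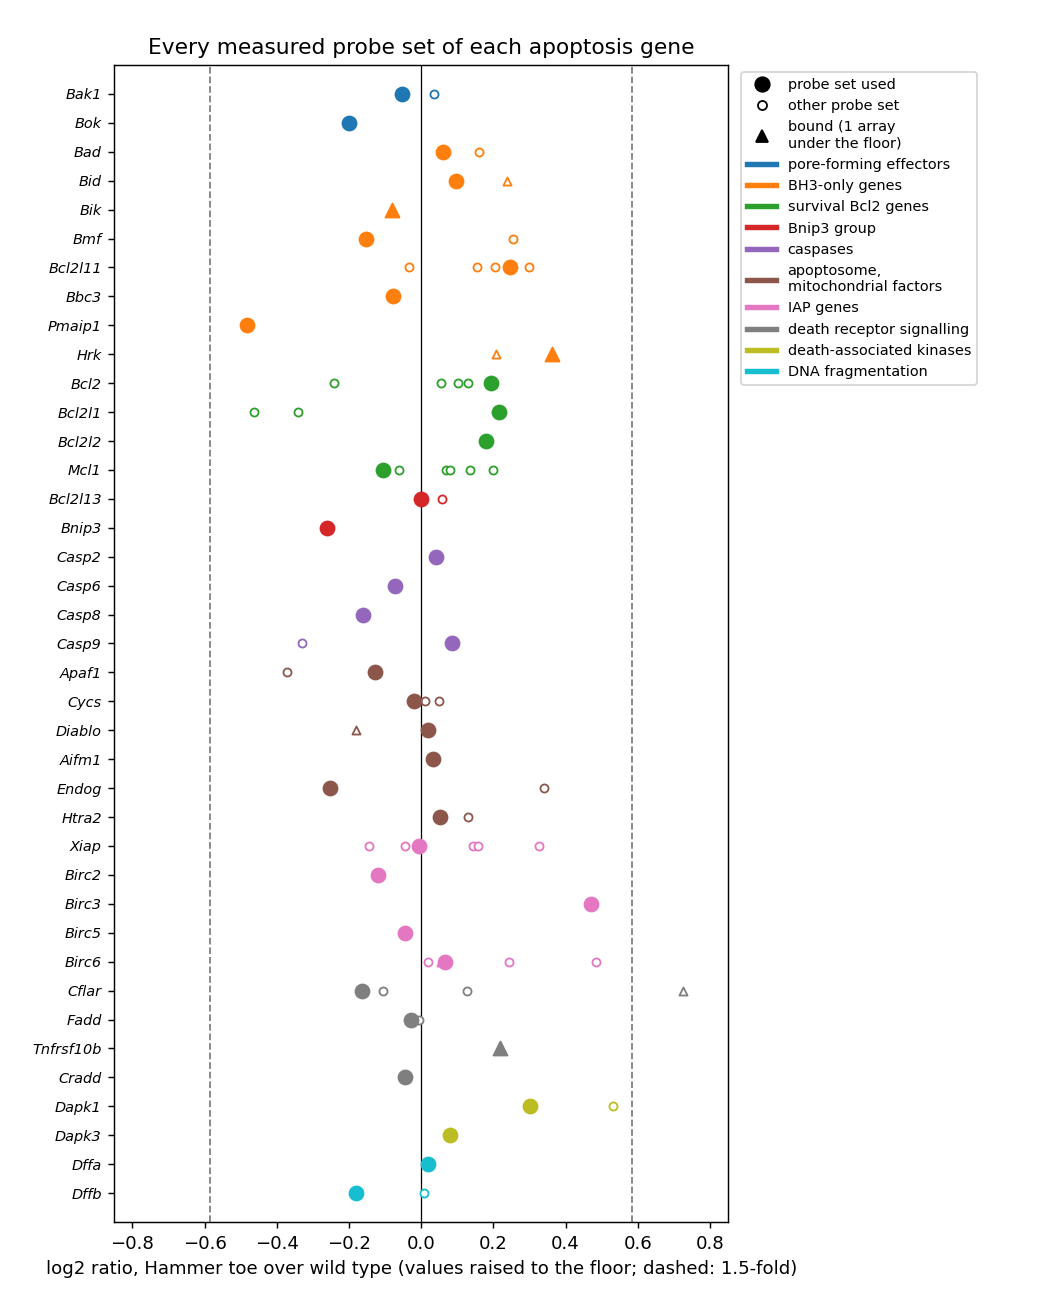
Log2 ratio of Hammer toe over wild type for each of the 82 measured probe sets of the 39 measured apoptosis genes, with the probe set used as a large filled symbol, other probe sets small and open, and bounds as triangles; dashed lines mark 1.5-fold. Only the bound of a Cflar probe set, at 0.72, lies beyond a dashed line, and the probe sets of Bcl2l1, Endog and Cflar spread to both sides of 0.

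Other genes of the pathway were 69 chosen by name. Of these, 60 had a probe set of their own and 50 were measured, 23 higher and 27 lower, with a median of -0.01 and none at 1.5-fold. A log2 ratio smaller than 0.32 either way was found in 86.0% of the 50, against 92.3% of members and 85.2% of all measured genes. Perp, a p53 target of epithelia, was highest: it gave 1927 for wild type and 2699 for Hammer toe, 1.40-fold higher. Unlike any member, it lay outside the range of its brightness, the 1.24-fold that held 95% of genes above 1000. Perp also stands in the surface ectoderm list below. Tnfrsf1b, a TNF receptor, was lowest, from 113 to 84.0, a ratio of -0.43. The ligand genes Tnf, Fasl and Tnfsf10 lay under the floor on both arrays. These 5 genes were picked for mention after their values were seen.

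The 12 genes listed for interdigital mesenchyme were all above the floor on both arrays. This cannot check the tissue label, since all listed macrophage, surface ectoderm and endothelial genes were above it too. Of the 12 interdigital genes, 8 were lower and 4 higher (median -0.15, sums 67603 and 61340). Tbx2 and Tbx3 were the 2 past 1.5-fold, both higher, at 0.70 and 0.80. Several marker lists of other cell types had medians further from 0 than the cell death genes. Of 14 macrophage markers, 13 were higher, at a median of 0.40 and intensity sums of 3713 for wild type and 4775 for Hammer toe, and none lay under the floor. Surface ectoderm markers were higher in 11 of 12 (median 0.43, sums 11305 and 14489). Muscle markers were higher in 6 of 8 (median 0.41, sums 1352 and 1977). Cartilage markers were lower in 10 of 11 (median -0.64, sums 16383.5 and 10608) and erythroid markers in 8 of 8 (median -0.49, sums 58176.5 and 49856). Endothelial markers were split, 4 higher and 4 lower, from -0.28 to 0.55 (median -0.01, sums 4376 and 4801). Their part in the values of Pmaip1, Birc3, Dapk1 and the other members was not tested.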

How the data were processed

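Affymetrix arrays measured biotin-labelled cRNA from 250 ng total RNA of 1 wild-type and 1 Hammer toe sample. Each value is a linear intensity of 1 probe set, which the authors computed before they deposited it; the submitters' processing notes name MAS5 and Affymetrix Expression Console; versions are not given in the sources used here. The 2% trimmed mean was 500.003 on both arrays, so a change of most transcripts in one direction would be hidden. Detection calls were not used.

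GEO's platform annotation, with symbols matched through the gene ID to the RefSeq table of GRCm38.p6, gave 1 gene to 34945 of 45037 non-control probe sets, several to 932 and none to 9160; 204 kept the annotation's symbol. The floor was the median of all non-control values (78.1). Where 1 array lay at or under it, the ratio is a bound. With 1 array per genotype no test was run, and size (1.5-fold) alone was used. The 46 members, their classes and all lists were chosen with earlier results of these data known. Every measured member is given by its ratio. Intensities follow for the largest in each class, those whose probe sets disagree by more than 0.3, those known in interdigital death, and some further members. Promoters came from RefSeq (GRCm38.p6), with windows for 41 members. Alternatives changed the scaling, the floor, the probe set and the size of change. The scripts, run in Python 3.11.15 with pandas 2.3.3 and statsmodels 0.14.6, were tested on simulated data.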

Additional observations from a re-analysis of the deposited data

How the results depend on the processing

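No paired analysis was possible because each genotype had 1 array. Median centring, quantile normalization, a lowess correction (span 0.3), a floor at the 75th percentile, averaging the probe sets of a gene, a pseudocount instead of the floor, only probe sets free of the _x_at, _s_at or _a_at suffix, a size of 2-fold and a demand that all measured probe sets pass all left 0 members past the size used, in each direction. Without a floor, 1 member was at least 1.5-fold higher (Casp1) and 3 lower (Casp12, Dapk2, Fas), all under the floor on both arrays, beside 13.0% and 12.6% of all genes; with the floor at the 25th percentile, 2 were lower (Dapk2, Fas), beside 6.89% of genes. At a log2 ratio of 0.32, 2 were higher and 1 lower. Counting any measured probe set, chosen after seeing the data, gave 1 higher. The median of all measured members stayed between -0.02 and 0.03, and all 98 alternative values of it and of the 10 class medians moved by less than the probe set SD of 0.21. Of 328 alternative values of single members, 5 moved by more: Bcl2l1 (-0.20), Endog (0.04) and Cflar (0.15) with averaged probe sets, and Bmf (0.25) and Endog (0.34) without the suffixed probe sets. Pmaip1 ranged from -0.49 to -0.43, Birc3 from 0.37 to 0.47 and Dapk1 from 0.28 to 0.42. Birc3 has no value with the floor at the 75th percentile or without the suffixed probe sets, as its measured probe set is left out there. The floor at the 75th percentile left 24 members, and the suffix-free probe sets 31. The survival class median ranged from 0.05 (averaged probe sets) to 0.19, and that of the death-associated kinases from 0.08 (no floor, or the lower floor) to 0.30. Every class median of the main setting was smaller than the SD of 0.21, as were the ratios of 30 of 39 members. A change of sign could therefore pass as no move. The BH3-only median, -0.01 on the main setting, was 0.10 without the suffixed probe sets.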

Other observations

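Members under the floor on both arrays are given as values only. Casp12 gave 17.2 for wild type and 1.08 for Hammer toe on one probe set, and 3.10 and 4.67 on the other. Casp1 read 19.6 and 29.4, and Dapk2 57.2 and 25.7. Intensities this low carry no ratio here.

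Among pathway genes outside the member list, the mitochondrial channel genes Vdac1 and Vdac2, which bind Bcl2 family proteins, were higher. Vdac1 gave 7009 for wild type and 8575 for Hammer toe, a log2 ratio of 0.29, and Vdac2 7206 and 7723, a ratio of 0.10. Both lay within the 1.24-fold that held 95% of genes above 1000. Casp8ap2, a nuclear protein that binds Casp8, read 3203 and 2411, a ratio of -0.41, outside that range. Ngfr, the p75 neurotrophin receptor, read 569 and 433, a ratio of -0.40, and Tnfrsf21, another death domain receptor, 400 and 543, a ratio of 0.44. Ngfr and Tnfrsf21 lay within the 1.45-fold that held 95% of genes from 200 to 1000. These genes were picked out of 50 measured ones after their values were seen, so a value outside its range is not a result.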
